A study of Mus musculus with 20 samples.

Results

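The genes described here are 10 genes of the Wnt programme of pericentral liver: Glul, Oat, Slc1a2, Rhbg, Tbx3, Lgr5, Axin2, Rnf43, Znrf3 and Rspo3. They were chosen by symbol, as hepatocyte zonation genes driven by Wnt signals and as Wnt regulators, with earlier results of these data known. They are 10 of the 54532 entries of a deposited table of gene expression in mouse liver. Each had 1 entry in the table, and all 10 passed the filter on low values, so that 10 of the 14059 genes tested are members. The study sequenced polyadenylated RNA of liver from STING knockout and wild-type mice with and without cholestasis, in 4 groups of 5 libraries. BDL_KO livers were STING knockout livers after bile duct ligation, BDL_Wt livers were wild-type livers after the same ligation, Sham_KO livers were knockout livers after sham surgery, and Sham_Wt livers were wild-type livers after sham surgery. Ligation, which blocks the outflow of bile, had lasted 7 days. STING, encoded by Tmem173, is the adaptor that passes the detection of cytosolic DNA on to interferon genes. The part of STING that was deleted, the time after sham surgery, and the strain, age and sex of the mice are not given in the sources used here. Mice lacking Abcb4, which the series' design text also names, were not analysed here.

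In the liver lobule, endothelial cells of the central vein release Wnt ligands and the R-spondin Rspo3, and the hepatocytes next to the vein respond by stabilising β-catenin, which switches on target genes with TCF/LEF factors. R-spondins bind Lgr receptors and remove the membrane ubiquitin ligases Rnf43 and Znrf3 from the cell surface, and these ligases would otherwise take Frizzled receptors away from it. Pericentral target genes include glutamine synthetase and other genes that clear ammonia, and Axin2, a scaffold of the complex that degrades β-catenin, is a feedback target.

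Promoter sequence was taken from RefSeq (build GRCm38.p6), as windows from 250 bases before to 50 bases after the transcript start, and 5 of the 10 symbols matched: Glul, Oat, Slc1a2, Rnf43 and Axin2, with 2 windows for Rnf43. The windows were searched on both strands for CTTTGA, the core letters that TCF/LEF factors recognise, and no other motif was searched. These letters stood in 5257 of all 32851 windows (16%). Among the 6 windows of members, the window of Slc1a2 held them, with matches whose first bases lie at -206 and -77 from the transcript start, and no match was found in the windows of Glul, Oat, Rnf43 and Axin2. A match is a description of the letters in these windows and not a site of binding. The windows of Glul (chr1:153899679-153899978, plus strand) and Slc1a2 (chr2:102706188-102706487, plus strand) are shown because Slc1a2 had the profile most like that of Glul across the libraries, and that of Axin2 (chr11:108920099-108920398, plus strand) because it is the feedback target. The Slc1a2 window lies inside the gene's annotated span and not at its 5′ end. Capitals mark matches to the searched letters.
Glul: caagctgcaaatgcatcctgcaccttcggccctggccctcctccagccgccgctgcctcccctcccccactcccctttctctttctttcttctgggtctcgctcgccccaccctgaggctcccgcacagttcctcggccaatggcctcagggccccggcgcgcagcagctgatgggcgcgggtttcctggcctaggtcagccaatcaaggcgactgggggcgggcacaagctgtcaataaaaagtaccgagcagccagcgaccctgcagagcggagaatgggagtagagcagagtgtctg
Slc1a2: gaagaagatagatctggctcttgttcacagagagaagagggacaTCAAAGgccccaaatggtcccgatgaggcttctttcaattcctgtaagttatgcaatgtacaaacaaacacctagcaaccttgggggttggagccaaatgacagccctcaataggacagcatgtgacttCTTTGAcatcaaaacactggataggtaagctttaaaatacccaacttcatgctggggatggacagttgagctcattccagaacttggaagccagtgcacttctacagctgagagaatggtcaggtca
Axin2: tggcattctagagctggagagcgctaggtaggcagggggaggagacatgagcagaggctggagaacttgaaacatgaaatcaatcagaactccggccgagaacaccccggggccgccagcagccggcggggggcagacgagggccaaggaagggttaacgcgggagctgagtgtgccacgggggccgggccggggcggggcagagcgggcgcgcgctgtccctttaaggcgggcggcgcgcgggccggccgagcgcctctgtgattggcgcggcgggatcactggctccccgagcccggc

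The 20 libraries held 14.95 to 20.9 M assigned fragments each, as recovered from the table. Levels are FPKM (fragments per kilobase of exon and per unit of sequencing depth, as scaled by the authors), and a value per length allows levels of different genes to be set side by side. Behind the values were 2894 to 26000 fragments per library for Glul and 3291 to 25411 for Oat, but 8 to 105 for Rhbg, 29 to 125 for Rspo3, 23 to 279 for Lgr5 and 26 to 317 for Axin2. A difference between groups is given in log2 units, on the log2(FPKM + 0.5) scale, ± its standard error from limma (n = 5 libraries per group). This scale understates changes of low genes. P-values are adjusted by the Benjamini-Hochberg method over all 14059 genes, with a threshold of 0.05. Nothing in the labels ties each library to its own animal, and a p-value therefore reflects the spread among libraries, which may be technical. In bulk tissue, fewer cells of a type and less RNA per cell cannot be told apart. Tmem173 averaged 1.42 ± 0.762 FPKM in BDL_KO livers, against 3.64 ± 0.861 FPKM in BDL_Wt livers, and 0.743 ± 0.189 FPKM in Sham_KO livers, against 1.71 ± 0.544 FPKM in Sham_Wt livers (SD, n = 5 each). Libraries BDL_KO_2248 and BDL_KO_2359 stood apart from the other 3 of their group. Their summed cholangiocyte markers were 69.7 and 91.1 FPKM, against 344 to 572 FPKM in the other 3, and their summed hepatocyte markers were 78386 and 64716 FPKM, against 40159 to 44334 FPKM. All FPKM of a library summed to 524471 and 480917 in this pair, against 332878 to 361980 in the other 3. The marker sums are not scaled for these totals. Values without BDL_KO_2248 and BDL_KO_2359 are given where leaving them out changes a printed call of a named gene. They are also given for some differences that move by more than 1.5-fold. The pair was picked from these data, by marker values that also differ between ligated and sham livers. Fits without the pair are therefore no independent test of ligation.

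Most of the 10 genes were lower in ligated than in sham livers of the wild type, and 3 of them in the knockout, while the test of the difference between the genotypes called none. In BDL_Wt livers 8 of the 10 fell relative to Sham_Wt livers, all but Rhbg and Znrf3, while 17.5% of all genes tested fell and 18.1% rose. The median difference of the 10 genes was -1.01 log2 units, against -0.02 for all genes. In BDL_KO livers Tbx3, Axin2 and Rspo3 fell relative to Sham_KO livers, which is 3 of 10 against 12.9% of all genes (12.3% rose), and the median difference was -0.62, against -0.01. Without BDL_KO_2248 and BDL_KO_2359, Glul, Oat and Slc1a2 also fell, 6 of 10 in all, while 2558 of the 14059 genes fell. After scaling to TPM 5 of the 10 fell in wild type and 1 in knockout, and the split over all genes moved too, with 993 falling and 4512 rising in wild type, against 2467 and 2544 as deposited, and 679 falling and 2142 rising in knockout, against 1809 and 1725. By the deposited values BDL_Wt had the lowest mean of the 4 groups for 10 of 10 genes. The highest mean was in Sham_Wt for 6 genes and in Sham_KO for Oat, Rhbg, Tbx3 and Rspo3. How often each group was lowest over all genes was not counted. After scaling to TPM, Rnf43, Znrf3 and Rspo3 had differences below 0 in BDL_KO relative to BDL_Wt livers (-0.063, -0.23 and -0.097). For no gene did BDL_KO differ from BDL_Wt, or Sham_KO from Sham_Wt, past the threshold.

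**Figure D1:**
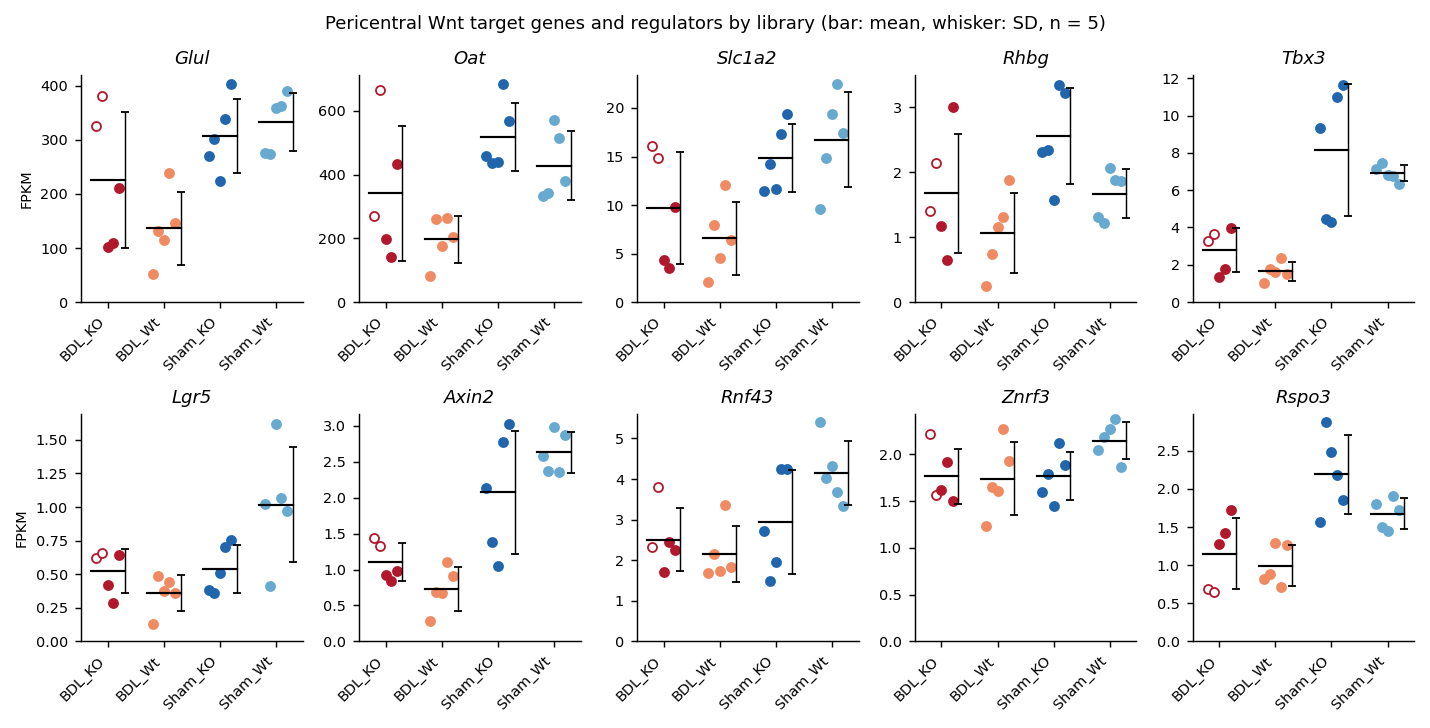
FPKM (y axis, linear, from 0) of the 10 genes in each of the 20 libraries (points) by group (x axis), with the mean (bar) and SD (whisker) of 5 libraries; open points are BDL_KO_2248 and BDL_KO_2359. Tbx3 lay between 1.00 and 4.00 FPKM in all 10 ligated libraries and between 4.27 and 11.6 FPKM in all 10 sham libraries, while Znrf3 overlapped between all groups.

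Glul (ENSMUSG00000026473.15, chromosome 1, 153899944 to 153909723, plus strand, GRCm38) encodes glutamine synthetase, the enzyme that joins ammonia to glutamate and that marks the ring of hepatocytes around the central vein. With library numbers in ascending order in each group here and below, Glul measured 326, 382, 103, 109 and 211 FPKM in the BDL_KO livers, against 270.1, 302, 224, 339.6 and 403 FPKM in the Sham_KO livers. Glul measured 51.2, 131, 115, 239 and 147 FPKM in the BDL_Wt livers, against 276, 274, 359, 364 and 391 FPKM in the Sham_Wt livers. The BDL_Wt values all lay below the Sham_Wt values, whereas in the BDL_KO group BDL_KO_2248 and BDL_KO_2359 lay within the sham range and the other 3 below it. Glul fell by 1.42 ± 0.37 log2 units in BDL_Wt relative to Sham_Wt livers (adjusted p = 0.00558), to 41.1% of the Sham_Wt mean. The difference in BDL_KO relative to Sham_KO livers was -0.62 ± 0.37 (adjusted p = 0.238), with a 95% interval of -1.39 to 0.16. Without the pair of libraries that stood apart it was -1.18 (adjusted p = 0.0157).

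Oat (ENSMUSG00000030934.9, chromosome 7, 132557478 to 132576398, minus strand) encodes ornithine aminotransferase, a mitochondrial enzyme that links ornithine to glutamate and proline. It had the highest mean level of the 10 genes in each group, followed by Glul. Oat measured 269, 665, 197, 141 and 434 FPKM in the BDL_KO livers, against 459, 435, 441, 684 and 569.5 FPKM in the Sham_KO livers. Oat measured 82.0, 261, 177, 262 and 203 FPKM in the BDL_Wt livers, against 334, 342, 570.3, 516 and 379 FPKM in the Sham_Wt livers. The BDL_Wt values lay below all Sham_Wt values, and the BDL_KO values spread over most of the range, with BDL_KO_2359 within that of the Sham_KO livers. Oat fell by 1.19 ± 0.36 log2 units in BDL_Wt relative to Sham_Wt livers (adjusted p = 0.0141), and the difference in BDL_KO relative to Sham_KO livers was -0.80 ± 0.36 (adjusted p = 0.114). Without BDL_KO_2359 alone the knockout difference was -1.09 (adjusted p = 0.0198). Without BDL_KO_2248 as well it was -1.15 (adjusted p = 0.021). The fall in wild type did not pass the threshold after scaling to TPM (adjusted p = 0.0522) or after quantile normalization (0.0663).

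Slc1a2 (ENSMUSG00000005089.15, chromosome 2, 102658659 to 102790784, plus strand), whose promoter window is printed above, encodes the glutamate transporter GLT-1. Slc1a2 measured 16.1, 14.8, 4.32, 3.50 and 9.75 FPKM in the BDL_KO livers, against 11.5, 14.2, 11.6, 17.3 and 19.4 FPKM in the Sham_KO livers. Slc1a2 measured 2.08, 7.90, 4.50, 12.0 and 6.39 FPKM in the BDL_Wt livers, against 9.58, 14.8, 19.4, 22.4 and 17.5 FPKM in the Sham_Wt livers. BDL_KO_2248 and BDL_KO_2359 again lay within the sham range, and in the wild type BDL_Wt_2237 overlapped the lowest Sham_Wt library. Slc1a2 fell by 1.42 ± 0.41 log2 units in BDL_Wt relative to Sham_Wt livers (adjusted p = 0.0108). Between BDL_KO and Sham_KO livers the difference was -0.78 ± 0.41 (adjusted p = 0.171), and -1.36 (adjusted p = 0.0161) without both libraries. Among 11072 genes averaging 1 FPKM or more, Slc1a2 had the profile most like that of Glul across the 20 libraries, with a mean absolute distance of 0.163 log2 units between centred profiles. Ugt1a1, a bilirubin-conjugating enzyme, at 0.245 and Lhpp, a phosphatase, at 0.247 came next, and Oat was the sixth at 0.285. These distances share the groups and libraries and carry no test.

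Rhbg (ENSMUSG00000104445.1, chromosome 3, 88242874 to 88254709, minus strand), an ammonia channel of the Rhesus family, did not pass the test in either genotype. It ranged over 0.650 to 3.00 FPKM in BDL_KO livers, 1.57 to 3.35 in Sham_KO livers, 0.243 to 1.88 in BDL_Wt livers and 1.21 to 2.06 in Sham_Wt livers, so the groups overlapped. The differences were -0.56 ± 0.30 (adjusted p = 0.175) in BDL_KO relative to Sham_KO and -0.55 ± 0.30 (adjusted p = 0.159) in BDL_Wt relative to Sham_Wt livers, with 95% intervals of -1.18 to 0.057 and -1.17 to 0.068. At 8 to 105 fragments per library these intervals admit both no change and a fall of more than 1 log2 unit.

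Tbx3 (ENSMUSG00000018604.18, chromosome 5, 119670669 to 119684724, plus strand) encodes a T-box transcriptional repressor and is a β-catenin target in liver. Tbx3 measured 3.26, 3.68, 1.33, 1.75 and 4.00 FPKM in the BDL_KO livers, against 9.33, 4.47, 4.27, 11.0 and 11.6 FPKM in the Sham_KO livers. Tbx3 measured 1.00, 1.79, 1.59, 2.37 and 1.48 FPKM in the BDL_Wt livers, against 7.15, 7.45, 6.83, 6.78 and 6.36 FPKM in the Sham_Wt livers. It was the gene with the largest difference of the 10 in both genotypes, and the only one of them whose ligated and sham livers did not overlap in either genotype. In BDL_KO relative to Sham_KO livers Tbx3 fell by 1.36 ± 0.28 log2 units (adjusted p = 0.00186), to 34.5% of the Sham_KO mean. In BDL_Wt relative to Sham_Wt livers it fell by 1.82 ± 0.28 (adjusted p = 6.79e-05), to 23.8% of the Sham_Wt mean. Both calls held in every alternative run and with each library left out, with differences of -1.55 to -1.17 in knockout and -1.93 to -1.70 in wild type across the libraries left out. The Sham_KO values fell into 2 low libraries (Sham_KO_2349 and Sham_KO_2350) and 3 high ones, a spread of 3.53 FPKM (SD), against 0.412 in Sham_Wt livers.

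Axin2 (ENSMUSG00000000142.15, chromosome 11, 108920349 to 108950783, plus strand), whose promoter window is also printed above, is used widely as a readout of Wnt signalling to β-catenin. Axin2 measured 1.44, 1.33, 0.929, 0.845 and 0.974 FPKM in the BDL_KO livers, against 2.13, 1.38, 1.05, 2.77 and 3.03 FPKM in the Sham_KO livers. Axin2 measured 0.278, 0.684, 0.678, 1.10 and 0.906 FPKM in the BDL_Wt livers, against 2.57, 2.37, 2.99, 2.36 and 2.88 FPKM in the Sham_Wt livers. All BDL_Wt values lay below all Sham_Wt values, and in knockout the 2 lowest Sham_KO livers, Sham_KO_2349 and Sham_KO_2350, overlapped the ligated ones. Axin2 fell by 1.39 ± 0.21 log2 units in BDL_Wt relative to Sham_Wt livers (adjusted p = 6.46e-05), to 27.7% of the Sham_Wt mean. It fell by 0.63 ± 0.21 in BDL_KO relative to Sham_KO livers (adjusted p = 0.0362), to 53.3% of the Sham_KO mean. The knockout call was close to the threshold and was lost in 5 alternatives and on leaving out any 1 of 6 libraries (BDL_KO_2365, BDL_KO_2370, BDL_KO_2371, Sham_KO_2347, Sham_KO_2352 or Sham_KO_2353), with adjusted p of 0.00911 to 0.131 over all alternatives. Without BDL_KO_2248 and BDL_KO_2359 the difference was -0.79 (adjusted p = 0.0158). The genes with profiles most like that of Axin2 were Entpd8, an ectonucleotidase (mean absolute distance of 0.218 log2 units), Notum, a secreted Wnt deacylase and itself a feedback inhibitor (0.227), and Sdr42e1, a dehydrogenase family member (0.235).

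Lgr5 (ENSMUSG00000020140.15, chromosome 10, 115450311 to 115587780, minus strand) encodes an R-spondin receptor that is itself a Wnt target. Lgr5 measured 0.622, 0.656, 0.420, 0.288 and 0.641 FPKM in the BDL_KO livers, against 0.386, 0.360, 0.509, 0.699 and 0.752 FPKM in the Sham_KO livers. Lgr5 measured 0.132, 0.486, 0.378, 0.438 and 0.361 FPKM in the BDL_Wt livers, against 1.02, 0.411, 1.62, 1.07 and 0.968 FPKM in the Sham_Wt livers. In wild type the groups overlapped through Sham_Wt_2224 alone, and in knockout they overlapped throughout. Lgr5 fell by 0.79 ± 0.19 log2 units in BDL_Wt relative to Sham_Wt livers (adjusted p = 0.00365). Between BDL_KO and Sham_KO livers the difference was -0.021 ± 0.19 (adjusted p = 0.953), with a 95% interval of -0.42 to 0.38. In the sham livers the mean was 0.541 ± 0.179 FPKM in Sham_KO and 1.02 ± 0.429 in Sham_Wt (SD, n = 5 each), a difference of -0.51 ± 0.19 (adjusted p = 0.171). Without Sham_Wt_2224 it was -0.68 and passed the threshold (adjusted p = 0.0464). At 23 to 279 fragments per library and with most values near the pseudocount, these log2 differences understate the ratio of the means, which was 35.2% for BDL_Wt against Sham_Wt.

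Rnf43 (ENSMUSG00000034177.15, chromosome 11, 87662722 to 87735539, plus strand) and Znrf3 (ENSMUSG00000041961.14, chromosome 11, 5276324 to 5444847, minus strand) encode the membrane ubiquitin ligases that R-spondins act on. Rnf43 ranged over 1.72 to 3.80 FPKM in BDL_KO livers and 1.48 to 4.25 in Sham_KO livers, and over 1.68 to 3.36 in BDL_Wt livers and 3.34 to 5.41 in Sham_Wt livers. In the wild type 4 of the 5 ligated libraries lay below all Sham_Wt livers, and BDL_Wt_2237, at 3.36 FPKM, just reached the lowest of them. Rnf43 fell by 0.83 ± 0.23 log2 units in BDL_Wt relative to Sham_Wt livers (adjusted p = 0.00905), a call that was lost after scaling to TPM (adjusted p = 0.0737). The knockout difference, BDL_KO relative to Sham_KO, was -0.14 ± 0.23 (adjusted p = 0.701), with a 95% interval of -0.63 to 0.35. Without BDL_KO_2248 and BDL_KO_2359 it was -0.30 (adjusted p = 0.382). Znrf3, whose differences had the smallest standard error of the 10, averaged 1.76 ± 0.297 FPKM in BDL_KO and 1.77 ± 0.259 in Sham_KO livers, and 1.74 ± 0.387 in BDL_Wt and 2.14 ± 0.200 in Sham_Wt livers (SD, n = 5 each). Its differences were -0.0045 ± 0.12 (adjusted p = 0.983) in knockout and -0.25 ± 0.12 (adjusted p = 0.111) in wild type, with 95% intervals of -0.26 to 0.25 and -0.51 to -0.0013. The wild-type difference of Znrf3 passed the threshold after quantile normalization (-0.35, adjusted p = 0.0339) and without BDL_Wt_2237 (-0.34, adjusted p = 0.0362), and was -7.00e-04 after scaling to TPM. Whether Rnf43 and Znrf3 differed from each other was not tested.

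Rspo3 (ENSMUSG00000019880.10, chromosome 10, 29452416 to 29535867, minus strand) encodes the R-spondin that central vein endothelium and stromal cells supply to hepatocytes, and is the ligand among the 10. Rspo3 measured 0.689, 0.648, 1.27, 1.42 and 1.72 FPKM in the BDL_KO livers, against 1.56, 2.87, 2.48, 2.18 and 1.85 FPKM in the Sham_KO livers. Rspo3 measured 0.819, 0.878, 1.28, 0.719 and 1.27 FPKM in the BDL_Wt livers, against 1.797, 1.49, 1.45, 1.91 and 1.73 FPKM in the Sham_Wt livers. All BDL_Wt livers lay below all Sham_Wt livers, and in knockout 1 ligated library, BDL_KO_2371, overlapped the lowest Sham_KO liver. Rspo3 fell by 0.73 ± 0.18 log2 units in BDL_KO relative to Sham_KO livers (adjusted p = 0.00629) and by 0.56 ± 0.18 in BDL_Wt relative to Sham_Wt livers (adjusted p = 0.0209). The knockout call was kept without BDL_KO_2248 and BDL_KO_2359 (-0.43, adjusted p = 0.0409) and lost after scaling to TPM (adjusted p = 0.0865). The wild-type call was lost after scaling to TPM (0.271) or to total fragments (0.149), and without BDL_Wt_2233 (0.0520) or BDL_Wt_2237 (0.0560). The genes with profiles most like that of Rspo3 were Fcgr2b, an Fc receptor of sinusoidal endothelium (mean absolute distance of 0.126 log2 units), Slc43a3, a purine transporter (0.128), and Tgoln1, a protein of the trans-Golgi network (0.144).

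**Figure D2:**
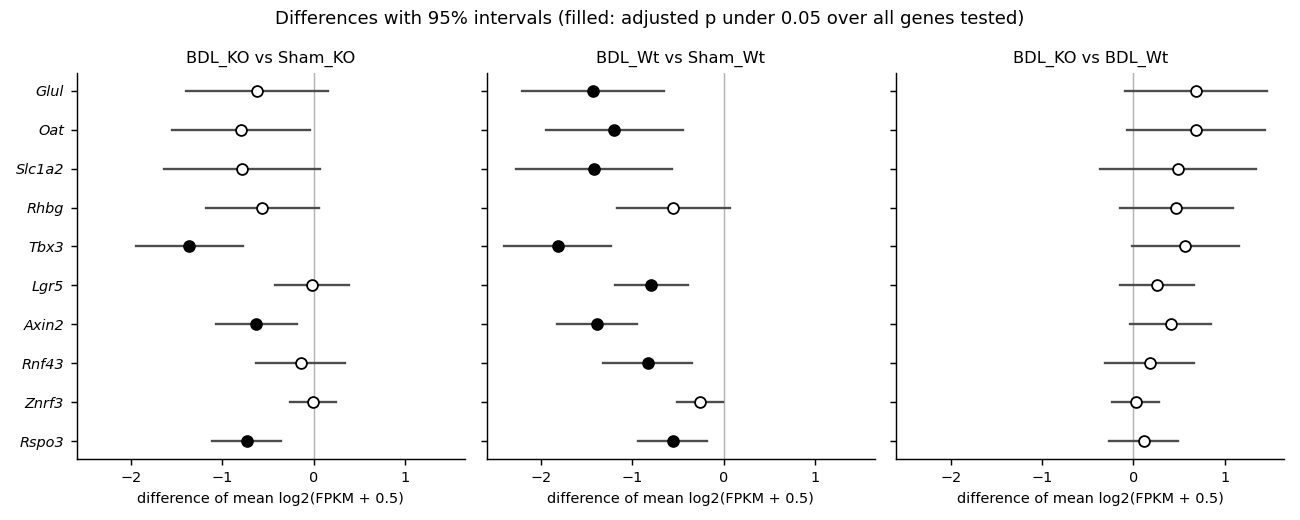
Differences of mean log2(FPKM + 0.5) (x axis) with 95% intervals (lines) for the 10 genes (y axis), from limma with 5 libraries per group: BDL_KO minus Sham_KO, BDL_Wt minus Sham_Wt and BDL_KO minus BDL_Wt; filled points have an adjusted p under 0.05 over all genes. In the first panel 3 points are filled, in the second 8 and in the third 0, with all 10 points of the third above 0; after scaling to TPM, 3 points of the first panel lie above 0 and 3 of the third below it.

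In wild type 5 of the 10 genes (Glul, Oat, Tbx3, Axin2 and Rspo3) had ligated livers that all lay below all sham livers, against 15.1% of all genes tested. In knockout this held for Tbx3 alone, 1 of 10 against 5.72% of all genes. In the BDL_Wt group the same libraries were lowest or highest for most of the 10 genes, and in the BDL_KO group these places were shared by more libraries. BDL_Wt_2233 was the lowest BDL_Wt library for 9 of the 10 genes and BDL_Wt_2237 the highest for 7. In the BDL_KO group BDL_KO_2370 was the lowest for 5 and BDL_KO_2365 for 3, and BDL_KO_2359, BDL_KO_2248 and BDL_KO_2371 were the highest for 4, 3 and 3. The median of the 10 genes relative to the Sham_Wt mean was -1.07 and -1.06 log2 units in BDL_KO_2365 and BDL_KO_2370, -0.51, -0.23 and -0.52 in BDL_KO_2248, BDL_KO_2359 and BDL_KO_2371, and -1.77 to -0.55 in the BDL_Wt libraries. In sham livers it was -0.50 to 0.22 in the Sham_KO libraries and -0.12 to 0.14 in the Sham_Wt libraries.

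**Figure D3:**
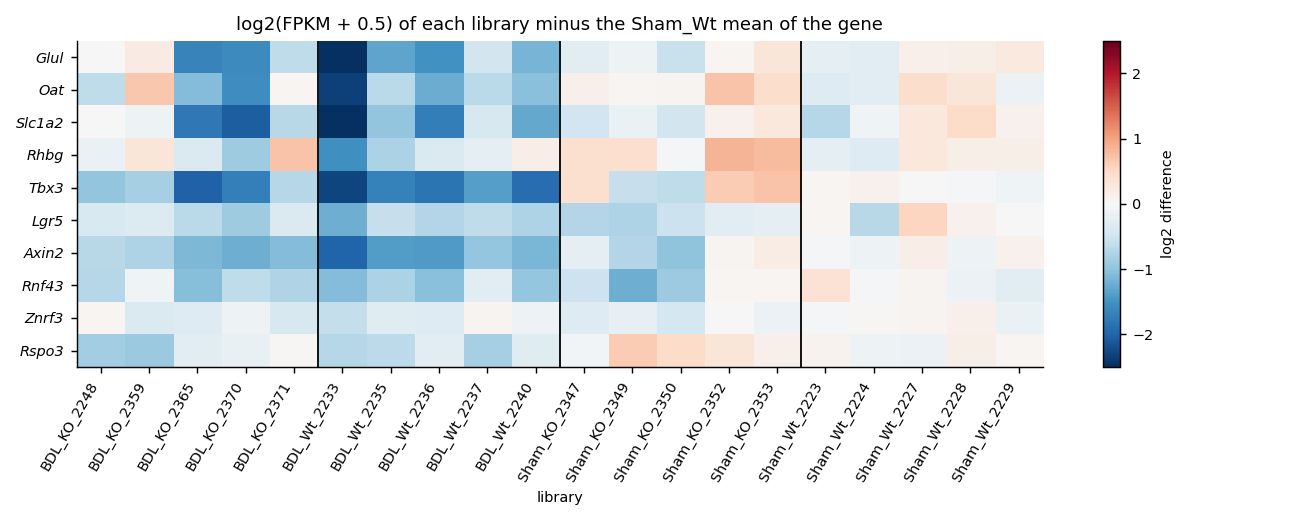
Colour shows log2(FPKM + 0.5) of each library (x axis, with lines between groups) minus the Sham_Wt mean of each gene (y axis), blue below and red above that mean. Glul, Oat, Slc1a2 and Tbx3 were darkest in BDL_Wt_2233, and in the BDL_KO group Glul and Slc1a2 were near the Sham_Wt mean in BDL_KO_2248 and BDL_KO_2359 and low in BDL_KO_2365 and BDL_KO_2370.

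None of the 10 genes passed the test between the genotypes. Between BDL_KO and BDL_Wt livers 0 of the 10 genes passed the threshold, against 8.83% of all genes, 0 had an unadjusted p under 0.05, and voom on recovered fragments also called 0. The 10 differences were all above 0, with a median of 0.44 log2 units, but after scaling to TPM only 7, and to total fragments or without BDL_KO_2248 and BDL_KO_2359 only 8, were above 0. Within both libraries with Y-linked transcripts and libraries with Xist, 5 of the 10 were higher in BDL_KO than in BDL_Wt livers, and the Glul difference was 1.10 in the first kind and 0.062 in the second. Glul averaged 226 ± 126 FPKM in BDL_KO and 137 ± 67.7 in BDL_Wt livers (SD, n = 5 each), a difference of 0.68 ± 0.37 (adjusted p = 0.269) with a 95% interval of -0.094 to 1.46. For Oat, Tbx3 and Axin2 the differences were 0.68 ± 0.36, 0.57 ± 0.28 and 0.41 ± 0.21, with intervals of -0.071 to 1.44, -0.018 to 1.15 and -0.034 to 0.85. Without BDL_KO_2248 and BDL_KO_2359 the Glul difference was 0.12 and that of Slc1a2 -0.095, against 0.49 with them. The differences of Oat, Tbx3 and Axin2 were then 0.33, 0.33 and 0.24. In Sham_KO relative to Sham_Wt livers 0 of the 10 passed, against 2.97% of all genes, 2 (Lgr5 and Rnf43) had an unadjusted p under 0.05, voom called 0, and 4 genes lay above 0 and 6 below, with Tbx3 below 0 as well after scaling to TPM. The differences were -0.51 ± 0.23 for Rnf43, 0.48 ± 0.30 for Rhbg and -0.13 ± 0.37 for Glul, with intervals of -0.996 to -0.023, -0.14 to 1.10 and -0.90 to 0.65.

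The different counts of called genes in the 2 genotypes are not a test of a different response, and the interaction was tested for each gene. It called 0 of the 10 genes, against 0.377% of all genes by adjusted p, and voom called 0. Of the 10 genes 3 had an unadjusted p under 0.05. The share of all genes with such an unadjusted p was not counted, in this or any other comparison. The 3 genes were Lgr5, with an interaction of 0.77 ± 0.27 log2 units (adjusted p = 0.224), Axin2 with 0.76 ± 0.30 (0.281) and Rnf43 with 0.69 ± 0.33 (0.396), where a positive value means a smaller fall in knockout. For Glul it was 0.81 ± 0.52 (0.581), with a 95% interval of -0.29 to 1.91, and 0.25 without BDL_KO_2248 and BDL_KO_2359. Of the 10 interactions 8 lay above 0, and those of Rhbg and Rspo3 lay below it, that of Rhbg above 0 after quantile normalization.

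Markers of several cell types also differed between ligated and sham livers. Of all genes tested, as deposited, 12.9% fell and 12.3% rose in knockout, and 17.5% fell and 18.1% rose in wild type. The 14 hepatocyte markers summed to 40159 to 78386 FPKM in BDL_KO and 62700 to 82940 FPKM in Sham_KO livers. In BDL_Wt livers they summed to 31013 to 40644 FPKM, against 56853 to 78150 FPKM in Sham_Wt livers. All FPKM of a library summed to 332878 to 524471 in BDL_KO, 408397 to 547332 in Sham_KO, 315016 to 347516 in BDL_Wt and 393884 to 439211 in Sham_Wt livers. Of the 14 markers 5 fell and 1 rose in knockout, and 6 fell and 1 rose in wild type. After scaling to TPM 4 fell and 4 rose in knockout, and 6 fell and 2 rose in wild type. The 12 cholangiocyte markers summed to 69.7 to 572 FPKM in BDL_KO and 33.0 to 38.0 FPKM in Sham_KO livers. In BDL_Wt livers they summed to 235 to 623 FPKM, against 27.1 to 32.7 FPKM in Sham_Wt livers. Of the 9 tested 7 rose in knockout and 9 in wild type. Of 16 tested endothelial markers 7 fell and 1 rose in knockout, and 10 fell and 1 rose in wild type. Without BDL_KO_2248 and BDL_KO_2359, 4 fell and 1 rose in knockout. After scaling to TPM 2 fell and 1 rose in knockout, and 6 fell and 1 rose in wild type. The endothelial sums were 47.3 to 98.6 FPKM in BDL_KO and 90.5 to 119 FPKM in Sham_KO livers. In BDL_Wt livers they were 42.2 to 63.3 FPKM, against 79.1 to 96.2 FPKM in Sham_Wt livers. The endothelial sum was 60.7 and 47.3 FPKM in BDL_KO_2248 and BDL_KO_2359, the libraries with the lowest Rspo3 of their group, against 85.0 to 98.6 FPKM in the other 3. Of 13 macrophage and monocyte markers 8 rose in knockout and 10 in wild type, and 12 and 13 without BDL_KO_2248 and BDL_KO_2359. No marker of these 4 lists was at 0 in all 20 libraries. Of 13 tested stellate cell and fibroblast markers 2 rose in knockout and 3 in wild type, and 0 fell. Without BDL_KO_2248 and BDL_KO_2359, 6 rose in knockout, and 5 rose and 2 fell in wild type. That fit leaves the wild-type differences unchanged and alters only their tests, through the shared estimate of spread. Over all 14059 genes it had 2558 falling and 2641 rising in knockout, and 2907 falling and 3020 rising in wild type. Neutrophil markers rose, 3 of 4 tested in knockout and 4 in wild type. Proliferation markers had 1 of 5 rising in knockout, or 5 without BDL_KO_2248 and BDL_KO_2359, and 0 called in wild type. Lymphocyte markers had 1 of 2 falling in wild type and 0 called in knockout. The part of these shifts in the differences of the 10 genes was not tested. Y-linked transcripts were present in 2 BDL_KO, 3 BDL_Wt, 3 Sham_KO and 2 Sham_Wt libraries and Xist in the others. All 10 genes were lower in libraries with Y-linked transcripts, 0 of them past the threshold (lowest adjusted p = 0.221, 3 with an unadjusted p under 0.05). Within both kinds of library 8 of the 10 were lower in BDL_KO than in Sham_KO livers, all but Lgr5 and Rnf43, and 10 of 10 were lower in BDL_Wt than in Sham_Wt livers.

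The rest of the Wnt pathway was read from lists of other genes. Of 21 Wnt ligand and secretion genes 5 passed the filter, and 1 fell and 1 rose in each genotype. In the fit without BDL_KO_2248 and BDL_KO_2359 the wild-type counts were 2 falling and 3 rising, at unchanged wild-type differences. Wnt2, a ligand of central vein and sinusoidal endothelium, fell by 0.87 ± 0.23 log2 units in BDL_KO relative to Sham_KO livers (adjusted p = 0.0101) and by 0.85 ± 0.23 in BDL_Wt relative to Sham_Wt livers (0.00726). It averaged 1.10 ± 0.505 FPKM in BDL_KO, 2.30 ± 0.466 in Sham_KO, 0.600 ± 0.284 in BDL_Wt and 1.45 ± 0.312 in Sham_Wt livers (SD, n = 5 each), and both calls were lost after scaling to TPM. Wnt5b, a ligand of noncanonical signalling, rose by 0.63 ± 0.21 in knockout (adjusted p = 0.0331) and 0.75 ± 0.21 in wild type (0.00910). Its knockout call was lost without BDL_KO_2248 and BDL_KO_2359 (0.49, adjusted p = 0.119), on leaving out any 1 of 6 libraries (BDL_KO_2359, BDL_KO_2370, BDL_KO_2371, Sham_KO_2347, Sham_KO_2349 or Sham_KO_2350), and in 4 other alternatives: no filter, quantile normalization, the fit of only the 2 groups compared, and voom. Of 18 secreted and feedback inhibitors 6 were tested. In knockout 1 fell and 1 rose, and in wild type 2 fell and 1 rose, with list medians of 0.38 and 0.22. The gene that rose in knockout is not among those named below. The feedback gene Nkd1 fell in both genotypes, with differences of -0.64 ± 0.16 in knockout and -0.76 ± 0.16 in wild type, and the knockout call was lost after scaling to TPM (adjusted p = 0.0892). Notum averaged 6.80 ± 1.42 FPKM in BDL_KO, 11.9 ± 4.75 in Sham_KO, 4.02 ± 2.00 in BDL_Wt and 14.5 ± 2.39 in Sham_Wt livers. It fell by 1.84 ± 0.28 in wild type (adjusted p = 6.24e-05), the difference in knockout was -0.70 ± 0.28 (adjusted p = 0.0743), and the interaction was 1.14 ± 0.40 (adjusted p = 0.216). The knockout difference of Notum passed the threshold without BDL_KO_2248 and BDL_KO_2359 (-0.89, adjusted p = 0.0430), without Sham_KO_2349 (adjusted p = 0.0496) and with library type as a covariate (0.0265). Dkk3, of the Dickkopf family, rose by 1.06 ± 0.22 in wild type, and its difference in knockout was 0.57 ± 0.22 (adjusted p = 0.0664), or 0.91 (adjusted p = 0.00253) without BDL_KO_2248 and BDL_KO_2359. It also passed without either of them alone (adjusted p = 0.0435 without BDL_KO_2248 and 0.0128 without BDL_KO_2359).

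Of 24 genes of the destruction complex and the nuclear effectors 22 were tested, and 4 fell and 2 rose in knockout, while 3 fell and 5 rose in wild type. After scaling to TPM 1 fell and 3 rose in knockout, and 2 fell and 7 rose in wild type. Over all genes tested, as deposited, 12.9% fell and 12.3% rose in knockout, and 17.5% fell and 18.1% rose in wild type. The corepressor Tle1 fell in both, with differences of -0.78 ± 0.15 in knockout and -1.24 ± 0.15 in wild type. Ctnnb1, the gene of β-catenin and named here after its values were seen, averaged 32.8 ± 3.81 FPKM in BDL_KO, 28.8 ± 1.82 in Sham_KO, 39.2 ± 4.26 in BDL_Wt and 31.8 ± 2.27 in Sham_Wt livers. Its difference was 0.18 ± 0.095 (adjusted p = 0.173) in knockout and 0.29 ± 0.095 (adjusted p = 0.0206) in wild type. Without BDL_KO_2248 and BDL_KO_2359 the knockout difference was 0.30 and passed the threshold (adjusted p = 0.0193). The wild-type call was lost without BDL_Wt_2233, BDL_Wt_2236 or Sham_Wt_2228 (adjusted p of 0.0525 to 0.0579). Of 11 receptor genes tested 2 fell and 1 rose in each genotype. Other genes known to respond to Wnt signals in liver or other epithelia moved both ways, with 2 falling and 3 rising of 9 tested in knockout, and 3 falling and 4 rising in wild type. Lect2, a secreted hepatocyte protein, fell by 1.43 ± 0.27 in wild type and by 0.75 ± 0.27 in knockout (adjusted p = 0.0467), the knockout call being close to the threshold and lost in 5 alternatives and on leaving out any 1 of 10 libraries. Lect2 was higher in BDL_KO than in BDL_Wt livers by 0.96 ± 0.27 (adjusted p = 0.0307). That call was lost without BDL_KO_2248 and BDL_KO_2359 (adjusted p = 0.102) and after scaling to TPM (0.0909) or to total fragments (0.0781). It was also lost with no filter (0.061), after quantile normalization (0.0602) and in the fit of only the 2 groups compared (0.133). Leaving out any 1 of 4 libraries (BDL_KO_2359, BDL_KO_2371, BDL_Wt_2233 or BDL_Wt_2236) lost it too. Mmp7, a metalloproteinase that injured bile duct epithelium also makes, rose by 2.31 ± 0.43 in knockout and 2.82 ± 0.43 in wild type, and Sox9, a transcription factor of cholangiocytes, rose by 2.32 ± 0.33 in wild type. The Sox9 difference in knockout was 0.87 ± 0.33 (adjusted p = 0.0613), and it passed after scaling to TPM (adjusted p = 0.0428), with library type as a covariate (0.0358) and on leaving out any 1 of 4 libraries (BDL_KO_2359, BDL_KO_2371, BDL_Wt_2236 or Sham_KO_2349).

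**Figure D4:**
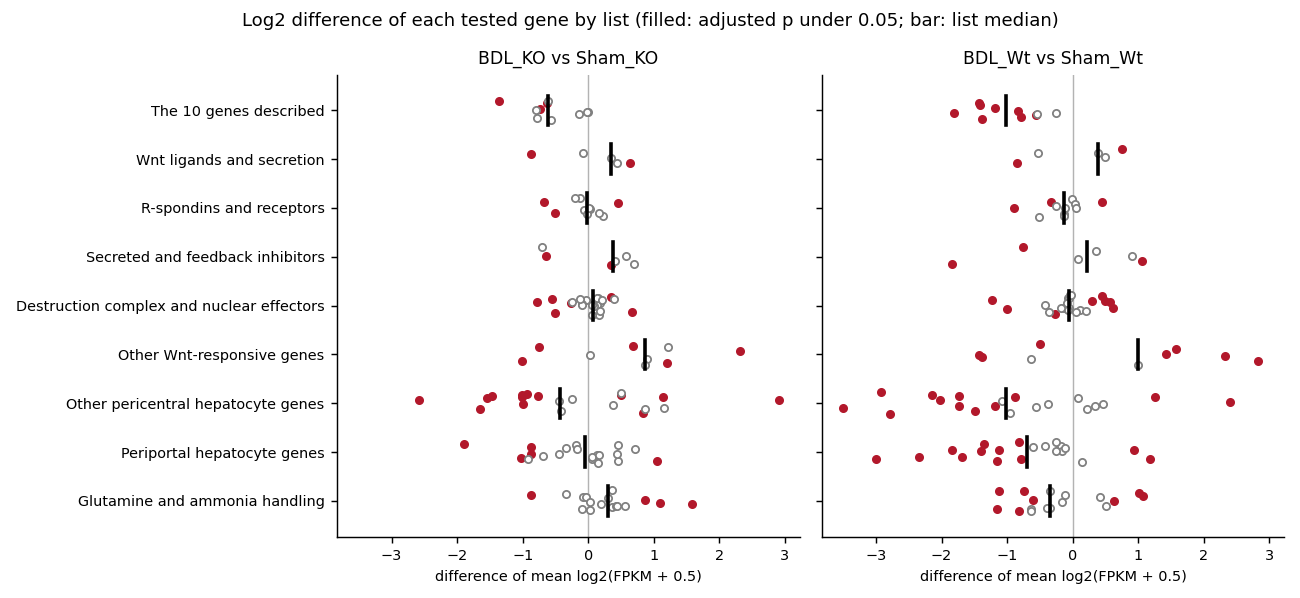
Each point is a tested gene, by list (y axis), with its difference of mean log2(FPKM + 0.5) (x axis) in BDL_KO minus Sham_KO and BDL_Wt minus Sham_Wt; filled points have an adjusted p under 0.05 over all genes and the bar is the list's median. The median of the 10 genes was -0.62 in knockout and -1.01 in wild type, that of the other pericentral genes -0.43 and -1.01, and that of the periportal genes -0.05 and -0.70, the last knockout value being 0.13 after scaling to TPM.

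The falls were not confined to pericentral genes in either genotype. Of 20 other pericentral hepatocyte genes 9 fell and 4 rose in BDL_KO relative to Sham_KO livers, and 10 fell and 2 rose in BDL_Wt relative to Sham_Wt livers. Of 20 periportal genes 4 fell and 1 rose in knockout, and 10 fell and 2 rose in wild type. Among all genes tested 12.9% fell in knockout and 17.5% in wild type. Without BDL_KO_2248 and BDL_KO_2359 the knockout counts were 9 falling and 4 rising of the pericentral genes, and 6 falling and 3 rising of the periportal genes. After scaling to TPM 7 fell and 5 rose of the pericentral genes in knockout and 9 fell and 4 rose in wild type, and 3 fell and 3 rose of the periportal genes in knockout and 10 fell and 2 rose in wild type. The cytochrome P450 gene Cyp2c37 fell, with differences of -2.58 ± 0.51 log2 units in knockout and -3.51 ± 0.51 in wild type. Cyp2e1, a P450 of ethanol metabolism named here after its values were seen, fell, with differences of -1.55 ± 0.37 and -2.15 ± 0.37. Gstm3, a glutathione transferase, rose by 2.91 ± 0.64 and 2.40 ± 0.64. Gstm3 ranged over 25.7 to 825 FPKM in BDL_KO livers, and without BDL_KO_2248 alone its knockout difference was 3.71. Without BDL_KO_2248 and BDL_KO_2359 the knockout differences were -3.36 for Cyp2c37, -2.29 for Cyp2e1 and 4.05 for Gstm3. Among periportal genes the sulfotransferase Sult5a1 fell, with differences of -1.89 ± 0.27 in knockout and -3.00 ± 0.27 in wild type, as did Otc, the urea cycle enzyme that consumes ornithine, with -0.87 ± 0.16 and -1.12 ± 0.16.

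Among 17 tested genes of glutamine and ammonia handling 1 fell and 3 rose in knockout, and 5 fell and 3 rose in wild type. After scaling to TPM 1 fell and 7 rose in knockout, and 5 fell and 5 rose in wild type. In the fit without BDL_KO_2248 and BDL_KO_2359 7 fell and 5 rose in wild type, at unchanged wild-type differences. Gls2, the liver glutaminase, fell by 1.15 ± 0.22 in wild type, the same direction as glutamine synthetase there, and its difference in knockout was -0.34 ± 0.22 (adjusted p = 0.258). Slc1a4, a neutral amino acid transporter of the family of Slc1a2, rose in both genotypes, to 3.70 ± 0.946 FPKM in BDL_KO livers, against 0.922 ± 0.395 in Sham_KO livers, and to 4.12 ± 0.476 FPKM in BDL_Wt livers, against 1.82 ± 0.774 in Sham_Wt livers. Its differences were 1.58 ± 0.25 (adjusted p = 2.35e-04) and 1.07 ± 0.25 (adjusted p = 0.00266). In BDL_KO relative to BDL_Wt livers, where none of the 10 genes passed, 6 of the 20 other pericentral and 6 of the 20 periportal genes rose (3.46% of all genes did) and 0 fell, and 4 and 2 rose without BDL_KO_2248 and BDL_KO_2359. Cyp2c29, a pericentral P450, averaged 142 ± 67.3 FPKM in BDL_KO and 45.9 ± 6.49 in BDL_Wt livers, a difference of 1.47 ± 0.27 (adjusted p = 0.00216). Ass1, a periportal urea cycle enzyme, averaged 1447 ± 466 and 684 ± 249.9 FPKM, a difference of 1.10 ± 0.23 (adjusted p = 0.00519). Both calls were lost when the fit held only those 2 groups (adjusted p of 0.0524 and 0.0806).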

How the data were processed

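Liver RNA was isolated with TRIzol and made into libraries with the VAHTS Universal V6 kit, per the labels. Tools in the submitters' processing notes, listed with no role, are DESeq2 1.20.0, featureCounts 1.5.0-p3, HISAT2 2.0.5, fastp and CASAVA 1.8, and the listed builds are mm10 and GRCm38; no source used here names the annotation release. The deposited values are FPKM that the authors computed, 1 column per library. With exonic lengths from GENCODE M21 (GRCm38), also the source of the members' locations, 97.89 to 98.4% of low values fell within 0.02 of a whole number of fragments, and this gave a depth of 14.95 to 20.9 M per library. FPKM summed to 315016 to 547332 per library.

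Groups follow the sample titles. Testing was done on log2(FPKM + 0.5) for the genes that reached 0.5 FPKM in 5 or more of the 20 libraries, with limma 3.58.1 in R 4.3.3 (trend, robust), in 1 model with 4 group means. Python 3.11.15, pandas 2.3.3, numpy 2.4.6 and matplotlib 3.10.9 read the files and drew figures. The pipeline was tested on simulated data. The 10 genes, the lists and the rule for named genes were chosen with earlier results of these data known. The rule takes all 10 genes, up to 4 called genes of each list per comparison with the largest differences and a mean of 1 FPKM or more (or its 2 most abundant genes), and the 3 genes most like Glul, Axin2 and Rspo3; the text names a subset. Alternatives were other pseudocounts (0.1, 1), filtering at 1 FPKM or not at all, TPM, quantile normalization, limma without its robust option, a fit to only the 2 groups compared, library type as a covariate, voom on the fragments recovered, removal of BDL_KO_2248 and BDL_KO_2359, and each library left out. Scaling to total fragments and values within library type were added after seeing the data. The removed pair, BDL_KO_2248 and BDL_KO_2359, was also picked from values of these data.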

Additional observations from a re-analysis of the deposited data

Results flagged for a closer look

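Of 40 sets of 5 values (10 genes in 4 groups), 1 held a library far from the other 4 by Dixon's criterion, which chance gives in about 5% of such sets. It was Rnf43 in the BDL_Wt group, where BDL_Wt_2237 measured 3.36 FPKM and the other 4 libraries 1.68 to 2.15 FPKM. BDL_Wt_2237 was also the highest of its group for 6 of the other 9 genes. Without it the difference of Rnf43 in BDL_Wt relative to Sham_Wt livers was -0.97 log2 units (adjusted p = 0.00359), against -0.83 with it.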

How the results depend on the processing

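No paired analysis was possible because the library numbers in the titles are all different and the groups share none. The number of the 10 genes called in BDL_Wt relative to Sham_Wt livers was 8, 5 after scaling to TPM, and 7 to 8 over the fits with 1 library left out. Without BDL_Wt_2237 Znrf3 passed and Rspo3 did not, and after quantile normalization Znrf3 passed and Oat did not. In BDL_KO relative to Sham_KO livers it was 3, 1 after scaling to TPM, 6 without BDL_KO_2248 and BDL_KO_2359, and 2 to 4 with 1 library left out. In Sham_KO relative to Sham_Wt livers it was 0, and 0 to 1 with 1 library left out, the 1 being Lgr5 without Sham_Wt_2224. For BDL_KO relative to BDL_Wt livers and for the interaction it was 0 in every alternative run. A filter at 1 FPKM left Lgr5 untested.

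Differences that changed sign were small. In BDL_KO relative to Sham_KO livers they were Lgr5 (0.079), Rnf43 (0.014) and Znrf3 (0.16) after scaling to TPM and Znrf3 after scaling to total fragments (0.041). For BDL_KO relative to BDL_Wt livers they were Rnf43 (-0.063), Znrf3 (-0.23) and Rspo3 (-0.097) after scaling to TPM, Znrf3 (-0.14) and Rspo3 (-0.013) after scaling to total fragments, Slc1a2 (-0.095) and Znrf3 (-0.026) without BDL_KO_2248 and BDL_KO_2359, and Znrf3 with library type as a covariate (-0.018). In Sham_KO relative to Sham_Wt livers Tbx3 was -0.032 after scaling to TPM. The interaction of Rhbg was 0.085 with a pseudocount of 0.1, 0.047 after quantile normalization and 0.10 with voom, and that of Rspo3 was 0.12 without BDL_KO_2248 and BDL_KO_2359. With 1 library left out, sign changes lay within -0.086 to 0.070 (Lgr5) and -0.072 to 0.049 (Znrf3) in BDL_KO relative to Sham_KO livers, -0.064 to 0.11 (Znrf3) and -0.0076 to 0.23 (Rspo3) in BDL_KO relative to BDL_Wt livers, -0.041 to 0.29 (Tbx3) in Sham_KO relative to Sham_Wt livers, and -0.26 to 0.19 for the interaction of Rhbg. The cause of these changes was not tested.

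Scaling to TPM moved the median difference of all genes to 0.27 in BDL_Wt relative to Sham_Wt, 0.15 in BDL_KO relative to Sham_KO and -0.25 in BDL_KO relative to BDL_Wt livers. Relative to that shift the median of the 10 genes was -1.15, -0.69 and 0.52. Fragments were fewest for Rhbg, Rspo3, Lgr5 and Axin2, with a median of 54, 78, 85 and 109 per library. What this did to their tests was not measured.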
